A study of Mus musculus with 12 samples.

Results

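The actin isoforms of mouse muscle were followed through the differentiation of C2C12 cells: Acta1 (skeletal muscle), Actc1 (cardiac), Acta2 and Actg2 (smooth muscle), and Actb and Actg1 (cytoplasmic). Members were all probes that the array annotation assigns to 1 gene only, from among these 6, with the 18 probes of several genes left out. This gave 15 of 45281 probes, for 5 of the 19057 genes with a probe: 1 for Acta1, 2 for Actc1, 6 for Acta2, 1 for Actg2 and 5 for Actb. No probe of 1 gene carries the symbol Actg1 in that annotation, and Actg1 was not analysed here. C2C12 is an established line of mouse myoblasts, whose cells stop dividing and fuse into myotubes when growth serum is withdrawn. Transcripts were measured on Illumina bead arrays in 4 stages of 3 arrays each: sparse (50%) and dense (95%) myoblast cultures, and myotubes 24 h and 48 h into differentiation. All cells were of this 1 line, and the labels name no treatment other than the medium. Per the labels' protocols, growth medium held bovine calf serum, and fully confluent myoblasts were moved to horse serum with insulin and transferrin. The labels number the replicates without saying whether they were separate cultures, so each p-value measures only how these samples spread, which may be technical.

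Actins are the subunits of the thin filaments of muscle and of the microfilaments of every cell. The vertebrate isoforms differ at few residues, chiefly near the amino terminus, and each is made from its own gene. In developing skeletal muscle the cardiac and smooth muscle isoforms are also made early, and skeletal alpha-actin comes to dominate the adult fibre. Most of these genes are targets of serum response factor (SRF), which binds a sequence called the CArG box and is switched on when free actin monomers are scarce.

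The regions just upstream of the members' start sites are shown because the CArG box is the shared element through which actin genes are known to be read. RefSeq promoter windows (build GRCm38.p6) were at hand for 4 of the 6 genes, and the 250 bases before the start are given 5′ to 3′ for Acta1 and Actc1, whose windows end right at the start of the RefSeq gene. Both genes lie on the minus strand. The Acta2 window is not printed, since 212 of its 250 bases lie inside the RefSeq gene, downstream of its outermost start. Capitals mark CArG boxes, either exact or with 1 base of the A/T core that is neither A nor T. The windows are chr8:123894776-123895025 for Acta1 and chr2:114052876-114053125 for Actc1.
Acta1: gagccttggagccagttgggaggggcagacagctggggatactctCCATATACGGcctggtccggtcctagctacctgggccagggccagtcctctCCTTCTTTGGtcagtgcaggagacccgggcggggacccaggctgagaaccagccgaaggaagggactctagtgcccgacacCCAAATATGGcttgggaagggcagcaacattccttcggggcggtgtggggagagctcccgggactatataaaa
Actc1: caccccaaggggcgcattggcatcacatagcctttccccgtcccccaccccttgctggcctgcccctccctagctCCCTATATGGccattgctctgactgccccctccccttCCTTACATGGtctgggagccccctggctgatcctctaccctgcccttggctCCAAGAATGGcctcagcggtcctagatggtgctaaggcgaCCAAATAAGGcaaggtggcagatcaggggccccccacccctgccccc

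Acta1 and Actc1 each held 1 exact CArG box, CCAAATATGG starting 73 bases and CCAAATAAGG starting 47 bases before the RefSeq start. That start may differ from the site where transcription begins. In Acta1 the letters TATAAA began only 7 bases before it. Acta1 held 2 more with 1 core base off and Actc1 held 3. The Acta2 window, chr19:34255374-34255623, held 0 exact boxes and 2 with 1 base off. Of all 32851 windows of this length, 1.47% held an exact box and 8.59% held either kind. The window of Actg1, on chromosome 11, held 1 exact box. The E-box CANNTG, the motif of MyoD-type factors, was found in 2 places for Acta1, in 3 for Acta2 and in 0 for Actc1, against 66.2% of all windows with at least 1. The letters CATTCC, bound by TEAD factors, stood once each for Acta1 and Acta2, and in 12.6% of all windows. Both strands were searched, no overlap was removed, and a match of letters is not a measured binding site. Actg2 lies on chromosome 6 and Actb on chromosome 5.

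Signals are the authors' normalized values, taken as log2 intensities, and every array holds the same set of values, from 6.32 to 15.25 around a median of 6.68. Signals near the top have little room to rise: the 10th highest value of an array is 15.00 and the 100th is 14.35. Signals of different probes are not amounts of transcript and are not set against each other. The letters given to probes of 1 gene follow their mean signal and are names only. Array 3 of the 95% group stood apart. The SD of its residuals over the probes tested was 0.182, while other arrays had 0.0569 to 0.122, and it correlated with its own group at 0.985 and 0.986. Myoblast and myotube labels were checked on markers. All 8 myotube markers were measured, with a mean of 8.26 and 7.11 at 50% and 95% confluence and of 11.53 and 13.45 at 24 h and 48 h. Among them Ckm had means of 6.67 and 6.48 in the myoblast stages, below the array median. It passed the filter on dim signals only through the myotubes. That filter favours a rise in such a gene, so the part of Ckm in the mean does not support the labels. Of 5 myoblast markers 4 were measured, with class means of 11.15, 10.84, 12.08 and 12.72 over the stages in the same order. All 4 (Myod1, Des, Cdh15 and Itga7) had their highest stage mean in 48 h myotubes, so this list does not set the myoblast stages apart. The highest stage mean of Myf5, the remaining marker, was 6.62.

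Of the 15 actin probes 14 passed the filter on dim signals. A moderated F-test in limma found a change at some stage for 13 of these 14 (adjusted p under 0.05), where 72.6% of all 19403 probes tested passed. Between 24 h myotubes and 95% myoblasts 7 actin probes rose and 2 fell, and 34.8% of all probes passed (15.0% up, 19.8% down). Between 48 h and 24 h myotubes 4 rose and 5 fell (47.1% of all probes, 22.7% up and 24.4% down). Between 95% and 50% myoblasts 0 rose and 8 fell (41.7% of all probes, 20.9% up and 20.7% down). Between 48 h myotubes and 50% myoblasts 5 rose and 6 fell (54.3% of all probes, 25.0% up and 29.3% down). Against 95% myoblasts, 48 h myotubes had 7 up and 3 down (56.7% of all probes, 25.8% up and 30.9% down). Against 50% myoblasts, 24 h myotubes had 3 up and 4 down (55.4% of all probes, 26.6% up and 28.8% down). Comparisons with a shared stage share its arrays and are not independent. The share of actin probes past the threshold was above that of all probes in 5 of these 6 comparisons, by the most from 95% to 24 h (64.3% against 34.8%). It was below it from 50% to 24 h (50.0% against 55.4%). Most of the 14 probes share a gene with others, and these shares were not tested against each other.

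**Figure D1:**
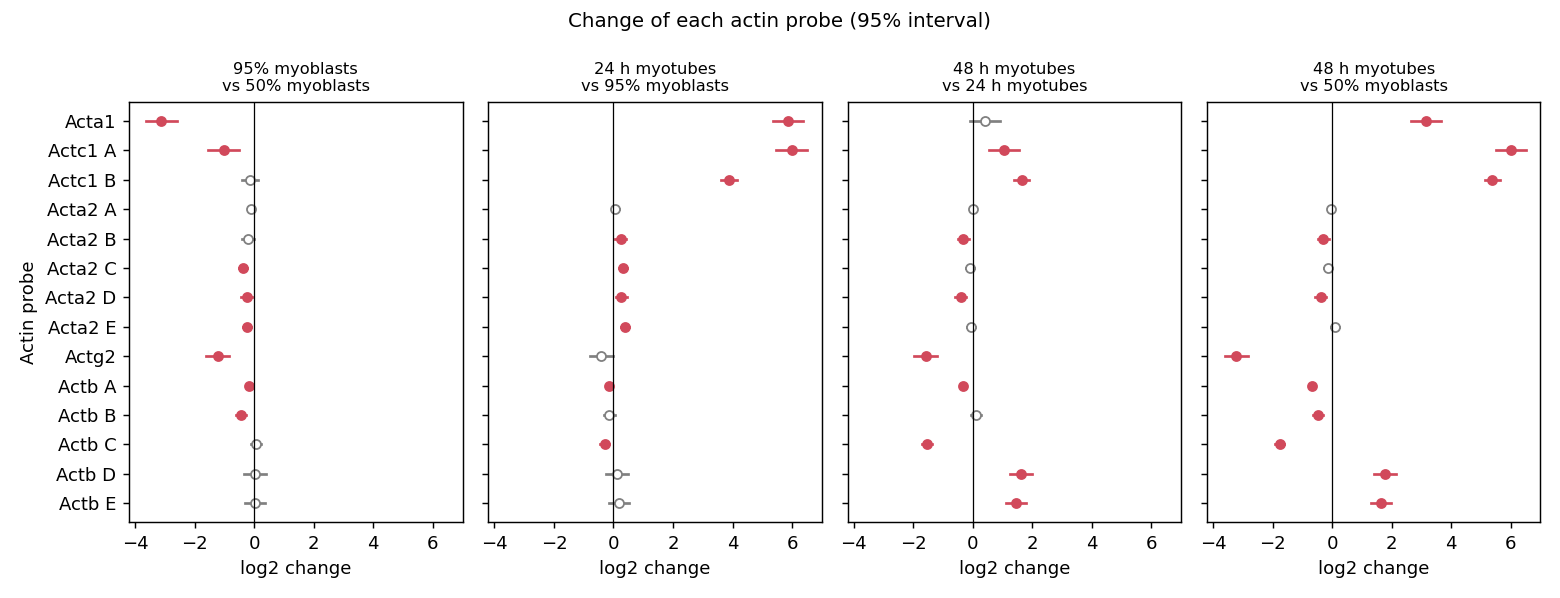
Log2 change of the 14 tested actin probes (rows) in 4 comparisons (panels), with 95% intervals from the limma fit on 3 arrays per group. Filled red points passed an adjusted p of 0.05 and open grey points did not. Acta1 and both Actc1 probes lie far to the right from 95% myoblasts to 24 h myotubes, and the 5 Actb probes spread to both sides of 0 from 24 h to 48 h.

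Acta1, the actin of adult skeletal thin filaments, fell with confluence and then rose to near the top of the scale. Its signal on the 3 arrays at 50% confluence was 12.06, 11.50 and 11.42, and at 95% confluence 8.40, 9.13 and 8.11. At 24 h it was 14.53, 14.14 and 14.57, and at 48 h 14.86, 14.83 and 14.77. No array of one stage overlapped with any array of another. The fall with confluence was -3.11 (SE 0.23, 8.65-fold, limma adjusted p = 2.25e-06). The rise to 24 h was 5.87 (SE 0.23, 58.3-fold, adjusted p = 8.27e-09). Without array 3 at 95% these changes were -2.90 and 5.65, and both passed. From 50% myoblasts the rise to 48 h was 3.16 (8.92-fold). Counted from the dense myoblasts the rise to 48 h was 6.27 (77.2-fold), so the size depends on the myoblast stage it is counted from. From 24 h to 48 h the change was 0.40 (95% interval -0.10 to 0.91, adjusted p = 0.180), or adjusted p = 0.00398 when only these 2 groups were fitted and 0.0470 with array weights. In order of level Acta1 stood at 48 h, 24 h, 50% and 95%, and only the first pair of neighbours did not pass.

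Actc1, the actin of the heart and of early skeletal myotubes, rose in both of its probes and was still rising on the second day. Probe A had signals of 8.88, 8.31 and 8.26 at 50% confluence and of 7.51, 8.01 and 6.87 at 95%. It reached 13.61, 13.32 and 13.41 at 24 h and 14.51, 14.52 and 14.45 at 48 h. Its 4 stages did not overlap on any array. It changed by -1.02 (SE 0.23, adjusted p = 0.00441) with confluence, by 5.98 (63.2-fold, adjusted p = 8.10e-09) to 24 h and by 1.05 (2.07-fold, adjusted p = 0.00292) to 48 h. Without array 3 at 95%, the first of these was -0.72 (limma adjusted p = 0.00233) and the second 5.68. Probe B had signals of 6.92, 6.78 and 6.80 at 50% and of 6.70, 6.84 and 6.52 at 95%, all close to the array median. It reached 10.71, 10.36 and 10.66 at 24 h and 12.02, 12.18 and 12.44 at 48 h. It rose by 3.89 (SE 0.12, 14.8-fold, adjusted p = 1.41e-09) to 24 h and by 1.64 (3.12-fold, adjusted p = 5.03e-07) to 48 h. Its change with confluence was -0.15 (95% interval -0.41 to 0.11, adjusted p = 0.359). Both probes stood in the order 48 h, 24 h, 50% and 95%, and only the myoblast stages on probe B were neighbours that did not pass.

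The Actc1 probes changed in the same direction at both steps and by unequal amounts. Within-array differences between probes were fitted over all pairs of 1 gene to test this. Probe A rose by 2.09 more than probe B to 24 h (SE 0.17, adjusted p = 1.85e-07) and by 0.59 less to 48 h (adjusted p = 0.00940). Probe B starts near the floor of the scale and probe A ends near its top. Over the whole span from 50% myoblasts to 48 h myotubes the rises were 6.01 (64.4-fold) and 5.38 (41.7-fold), with a difference of 0.63 (SE 0.17, adjusted p = 0.00814).

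Acta1 and Actc1 probe A were tested against each other in the same way. To 24 h the difference between their rises was -0.12 (95% interval -0.31 to 0.08, adjusted p = 0.451). With confluence Acta1 changed by 2.09 more in the downward direction (difference -2.09, adjusted p = 4.50e-10). Actc1 probe A stood at 8.48 at 50%, on a scale whose lowest value is 6.32. It had no room for the change of -3.11 seen on Acta1. From 24 h to 48 h Acta1 rose by 0.64 less (difference -0.64, adjusted p = 2.55e-05), with Acta1 already near the top of the scale. From 50% myoblasts to 48 h the difference was -2.85 (adjusted p = 5.48e-13). Acta1 started this span at 11.66, on a scale whose highest value is 15.25. It had no room for the rise of 6.01 seen on Actc1 probe A, so this test cannot compare the 2 genes' rises. The 3 arrays of each myoblast stage had the same order on both probes: array 1 was highest at 50% and array 2 at 95%, with array 3 lowest at both.

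**Figure D2:**
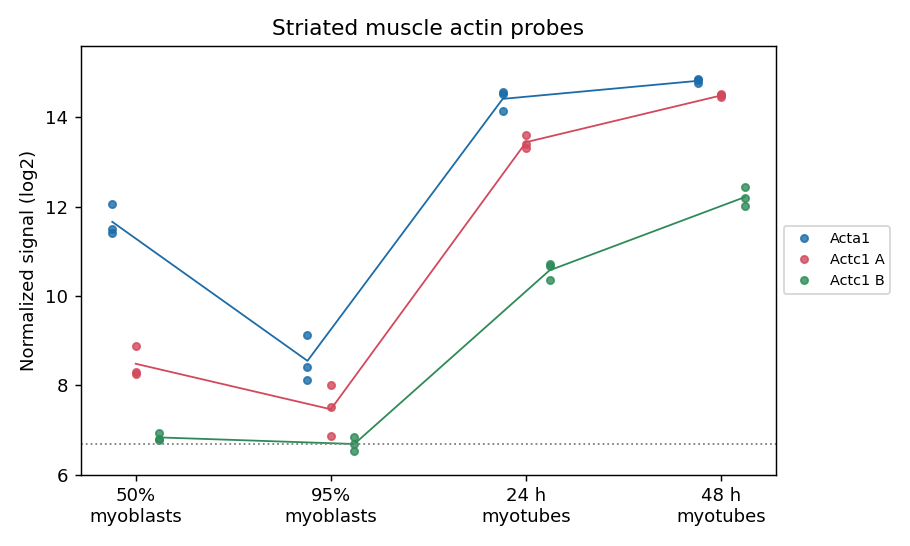
Normalized signal (log2) of the Acta1 probe and both Actc1 probes on each array at the 4 stages. Points are arrays (3 per stage), lines join stage means, and the dotted line is the array median of 6.68. Acta1 drops from 11.66 to 8.55 between the myoblast stages, while at 48 h it and Actc1 A stand at 14.82 and 14.49.

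Markers of heart cells were checked beside the cardiac actin. Of 8 cardiomyocyte markers 4 were measured (Nppb, Gata4, Myh6 and Tnni3), with a mean of 6.90, 7.03, 7.38 and 7.03 over the 4 stages in order. Nppa, Nkx2-5 and Hand2 had stage means no higher than 6.71, and Tnnt2 had no probe annotated to it alone. The part of heart markers in the rise of Actc1 was not tested. Nppb, a natriuretic peptide, had stage means of 7.35, 7.97, 9.30 and 7.38. The highest stage means of Gata4, Myh6 and Tnni3 were 6.98, 6.94 and 6.82. Myh6 was below the array median at 50%, 95% and 24 h (6.63, 6.61 and 6.60). Its probe could therefore pass the filter on dim signals only through 48 h myotubes, which favours a high value there.

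Acta2, the alpha-actin of smooth muscle and a known product of myoblasts in culture, moved by at most 0.40 on the log2 scale in every comparison on each of its 5 tested probes. Probe A lay among the brightest 26 probes of every array. Its signals were 14.91, 15.04 and 15.00 at 50%, 14.86, 14.89 and 14.91 at 95%, 14.94, 14.95 and 14.98 at 24 h, and 14.91, 14.93 and 15.03 at 48 h. The 24 h arrays lay just above the 95% arrays, every other pair of stages overlapped, and its F-test did not pass (adjusted p = 0.327). Its full range over 12 arrays was 0.18, on a part of the scale where ranks 7 to 26 span the same 0.18. Its change from 50% myoblasts to 48 h was -0.03 (95% interval -0.13 to 0.08), and the interval holds only for this compressed end of the scale.

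Acta2 probes B, C and D had more room, with ranges of 0.50, 0.51 and 0.56 around medians of 13.69, 13.46 and 13.25. Probe C was lowest at 95%, with 13.24, 13.15 and 13.19, against 13.50, 13.65 and 13.54 at 50%. It was at 13.49, 13.42 and 13.63 at 24 h and at 13.48, 13.43 and 13.36 at 48 h. The 95% arrays lay below all others on this probe. It fell by 0.37 with confluence (adjusted p = 0.000556) and rose by 0.32 to 24 h (SE 0.06, 1.25-fold, adjusted p = 0.00178). Its change from 24 h to 48 h was -0.09 (adjusted p = 0.279).

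Probes B and D fell on the second day. Probe D went from 13.45, 13.24 and 13.39 at 24 h to 12.90, 12.99 and 13.00 at 48 h, without overlap. Its change was -0.40 (SE 0.08, 1.32-fold lower, adjusted p = 0.00209), and that of probe B was -0.32 (SE 0.09, adjusted p = 0.00778). From 95% to 24 h they rose by 0.27 (adjusted p = 0.0275) and 0.24 (adjusted p = 0.0489). Without array 3 of the 95% group these rises were 0.17 for both, at adjusted p = 0.0657 for D and 0.128 for B, and neither passed. The call on D was also lost without array 1 or array 3 at 24 h (adjusted p = 0.106 and 0.0822). That on B was kept only without array 1 at 95%, array 2 at 24 h or array 3 at 48 h, and with any other array left out its adjusted p was 0.0511 to 0.162. The fall of probe D with confluence, -0.25 (adjusted p = 0.0323), was -0.15 without that array (adjusted p = 0.0810). It was also lost without array 2 at 95% or any 1 array at 50% (adjusted p = 0.0544 to 0.0868). Probe B had a change of -0.29 from 50% to 48 h (adjusted p = 0.0114), which was -0.24 if array 2 at 48 h was left out (adjusted p = 0.0532).

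The remaining Acta2 probes were dim. Probe E stood at 6.91, 6.90 and 6.95 at 50%, at 6.63, 6.72 and 6.69 at 95%, at 7.03, 7.20 and 6.995 at 24 h and at 6.98, 6.94 and 7.11 at 48 h. It fell by 0.24 with confluence (adjusted p = 0.00749) and rose by 0.40 to 24 h (1.32-fold, adjusted p = 0.000412), with the same directions as probe C. Probe F, the only Acta2 probe annotated to a cDNA clone in place of the reference transcript, lay between 6.44 and 6.52 on every array and was not tested. Pairwise, 2 of the 10 tested Acta2 pairs changed unequally to 24 h, A with C and A with E. From 24 h to 48 h 5 of 10 did, among them C with D (0.31, SE 0.09, adjusted p = 0.0107).

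Actg2, the gamma-actin of enteric smooth muscle, fell over the whole course. Its signals were 12.98, 12.98 and 12.85 at 50%, 11.50, 11.37 and 12.27 at 95%, 11.34, 11.17 and 11.39 at 24 h, and 9.69, 9.82 and 9.64 at 48 h. The 50% arrays were above and the 48 h arrays below all others, and the middle stages overlapped through array 2 of the 95% group. Its order of level was 50%, 95%, 24 h and 48 h. It fell by 1.22 with confluence (SE 0.18, 2.34-fold lower, adjusted p = 0.000221). The change from 95% to 24 h was -0.41 (SE 0.18, adjusted p = 0.0959), or -0.59 without array 2 of the 95% group (adjusted p = 0.0219) and -0.13 without array 3 (adjusted p = 0.196). Without array 3 at 95% the fall with confluence was -1.50 (adjusted p = 7.62e-09). The second day brought a further fall of 1.58 (3.00-fold lower, adjusted p = 1.67e-05). From 50% to 48 h it fell by 3.22 (9.31-fold lower, adjusted p = 2.24e-08).

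The smooth muscle actins changed unequally. From 50% myoblasts to 48 h myotubes Acta2 probe B changed by 2.93 more upward than Actg2 (SE 0.20, adjusted p = 5.09e-09), with Acta2 at -0.29 and Actg2 at -3.22. In the second day alone the difference was 1.26 (adjusted p = 6.24e-05). Of 7 smooth muscle markers 5 were measured, with means of 7.94, 7.55, 7.74 and 7.96 over the stages. That mean covers members that went opposite ways. It also includes Synpo2 (6.77, 6.64, 7.37 and 7.46), which passed the filter only through the myotubes. The filter favours a rise in such a gene. Tagln, transgelin, had stage means of 8.81, 7.86, 7.25 and 6.90, and Smtn, smoothelin, had 10.43, 9.80, 10.31 and 11.68. The means of Tagln were lower at each step, as were those of Actg2, but not every step passed. Tagln did not pass from 24 h to 48 h (-0.35, limma adjusted p = 0.0653), nor Actg2 from 95% to 24 h. Myh11 and Cnn1, the smooth muscle myosin heavy chain and calponin, had highest stage means of 6.57 and 6.60. The part of smooth muscle markers in the changes of Acta2 and Actg2 was not tested. In such bulk RNA, fewer cells that make Actg2 and less Actg2 RNA per cell cannot be told apart.

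**Figure D3:**
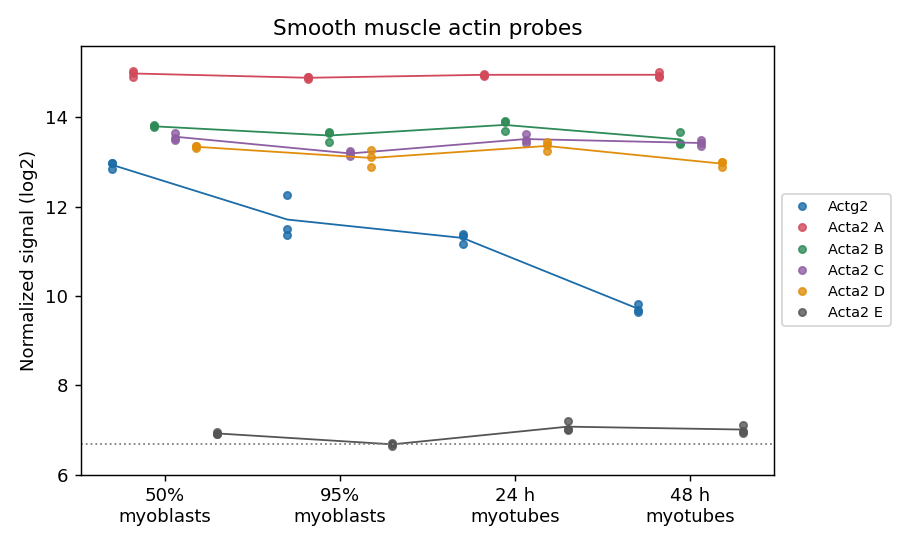
Normalized signal (log2) of Actg2 and of Acta2 probes A to E on each array at the 4 stages. Points are arrays (3 per stage), lines join stage means, and the dotted line is the array median of 6.68. Actg2 descends from 12.94 to 9.72, while no Acta2 probe spans more than 0.57 over the 12 arrays.

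Actb, the beta-actin of the cytoplasm and a common reference gene, gave 4 patterns on its 5 probes. Probe A fell at each step. It read 14.74, 14.81 and 14.83 at 50%, 14.55, 14.62 and 14.67 at 95%, 14.46, 14.45 and 14.45 at 24 h, and 14.11, 14.13 and 14.13 at 48 h, and no stages overlapped. Its steps were -0.18 (adjusted p = 0.00675), -0.16 (adjusted p = 0.0138) and -0.33 (adjusted p = 7.33e-05), and the whole change was -0.67 (SE 0.04, 1.59-fold lower, adjusted p = 1.05e-07). When only the 2 groups compared were fitted, its first step gave adjusted p = 0.0550 and its second 0.0631.

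Probe B fell with confluence, and neither later step passed. It read 14.77, 14.84 and 14.86 at 50%, and 14.16, 14.55 and 14.46 at 95%. At 24 h it read 14.19, 14.28 and 14.29, and at 48 h 14.34, 14.33 and 14.39. The 50% arrays lay above all others. Its fall with confluence was -0.43 (SE 0.08, 1.35-fold lower, adjusted p = 0.00121). The change to 24 h was -0.14 (95% interval -0.31 to 0.04, adjusted p = 0.224), or -0.25 without array 1 of the 95% group (adjusted p = 0.00366). The change to 48 h was 0.10 (95% interval -0.07 to 0.28, adjusted p = 0.332).

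Probe C fell on the second day. Its signals were 13.91, 13.99 and 14.09 at 50%, 14.08, 14.03 and 14.07 at 95%, 13.77, 13.81 and 13.70 at 24 h, and 12.12, 12.17 and 12.40 at 48 h. The 48 h arrays stood more than 1 log2 unit below every other array. The change from 24 h to 48 h was -1.53 (SE 0.07, 2.89-fold lower, adjusted p = 1.88e-08), after a change of -0.30 to 24 h (adjusted p = 0.00717). From 50% to 24 h its change was -0.23 (adjusted p = 0.0152), which did not pass without array 3 at 50% (adjusted p = 0.0671) or array 3 at 24 h (adjusted p = 0.0612). With confluence its change was 0.06 (95% interval -0.09 to 0.22, adjusted p = 0.526).

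Probes D and E rose on the second day. Probe D read 7.34, 6.96 and 6.73 at 50%, 6.85, 7.38 and 6.84 at 95%, 7.18, 6.96 and 7.34 at 24 h, and 8.74, 8.89 and 8.74 at 48 h. The first 3 stages overlapped and the 48 h arrays lay above them all. It rose by 1.63 from 24 h to 48 h (SE 0.17, 3.09-fold, adjusted p = 8.50e-06), and probe E rose by 1.45 (SE 0.16, 2.72-fold, adjusted p = 1.27e-05). Over the 12 arrays the difference between D and E had an SD of 0.08, so the pair is close to 1 measurement. Within both myoblast stages and at 24 h, the array with the highest D and E was also the highest on Acta1, namely array 1 at 50%, array 2 at 95% and array 3 at 24 h. At 48 h array 2 was highest on D and E and array 1 on Acta1. The probes' own sequences were not used here, and whether probes D and E also take up transcripts of other actins was not tested.

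Each probe of Actb is annotated to the same reference transcript, yet their changes differed beyond the error on the second day. From 24 h to 48 h, 10 of the 10 Actb pairs changed unequally, D with E by the least (0.18, adjusted p = 0.0252) and C with D by the most (-3.16, SE 0.19, adjusted p = 1.83e-09). Since D and E are close to 1 measurement, their pairs with A, B and C are near duplicates. The counts of pairs that follow include them. Over all actin genes 16 of 21 pairs of 1 gene passed in this comparison, where 49.3% of the 11353 such pairs of all genes passed. To 24 h 3 of 21 passed (20.9% of all such pairs), and with confluence 7 of 21 (43.1%). None of the 3 to 24 h was an Actb pair, where C with E had the lowest limma adjusted p, 0.0724. From 50% to 48 h 14 of 21 passed (39.4%), from 95% to 48 h 15 of 21 (55.2%) and from 50% to 24 h 8 of 21 (50.4%). Leaving out 1 array, the count to 24 h ran from 2 to 6, with 6 without array 2 at 95%, and that with confluence from 4 to 8, with 4 without array 2 at 50% or array 1 at 95%. Unequal change of probes of 1 gene was therefore not rare on these arrays.

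**Figure D4:**
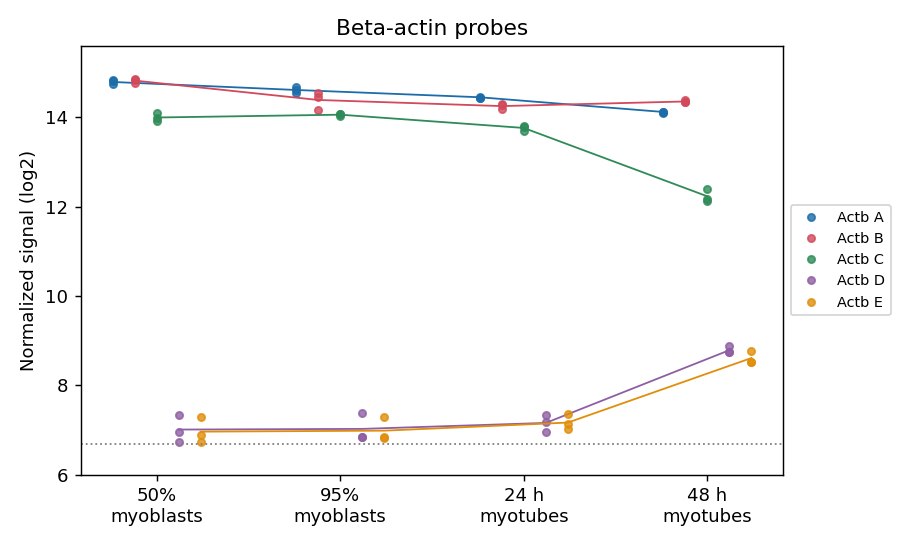
Normalized signal (log2) of the 5 Actb probes on each array at the 4 stages. Points are arrays (3 per stage), lines join stage means, and the dotted line is the array median of 6.68. Probe C drops to 12.23 at 48 h, where the dim probes D and E climb to 8.79 and 8.61.

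Genes with patterns most like each actin were ranked by Pearson r over the 12 arrays, with the brightest kept probe of each gene. The arrays fall into 4 stages, so r mostly follows the stage means. Nearest to Acta1 were Mylpf, a fast myosin light chain (r = 0.995), Tnnc1, the slow and cardiac troponin C (0.986), and Prelp, a matrix proteoglycan (0.981). Mylpf shared the dip at 95%, with stage means of 10.94, 8.01, 14.53 and 14.98. Nearest to Actc1 probe A were Myog, the transcription factor myogenin (0.999), Myzap (0.997) and Klhl41, a sarcomere kelch protein (0.996). Nearest to Actg2 were 4930524J08Rik (0.989), Dclre1b, a DNA repair nuclease (0.988), and Asf1b, a histone chaperone of dividing cells (0.988). Nearest to Actb probe A were Cbr3 and Clspn, the latter an S-phase checkpoint protein (both 0.993), and Tmem120a (0.992). For Acta2 probe A, which hardly moved, the highest r was 0.869, with Camkv.

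Actin is folded, stored, nucleated and capped by partner proteins, and lists of their genes were counted with 1 probe per gene. Of the 11883 genes tested, 15.9% rose and 21.3% fell from 95% myoblasts to 24 h, and their median change was -0.02. From 50% myoblasts to 48 h the shares were 26.7% up and 30.0% down, around -0.01.

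Of 13 measured genes of filament ends and crosslinks 5 rose and 5 fell to 24 h (median -0.08). Actn2, the alpha-actinin of the Z-disc, rose by 2.66 (SE 0.15, adjusted p = 1.49e-07). Tmod1, which caps the pointed ends of thin filaments, had means of 6.66 and 6.81 in the myoblast stages and of 9.12 and 10.71 in the myotube stages. It passed the filter only through the myotubes, so no test value is given for it, though it is among the rises counted. Actn1, a non-muscle alpha-actinin, changed by -0.54 (SE 0.07) and Tmod3, the widely made tropomodulin, by -0.36. The other rises to 24 h were Actn3 (2.03), Flnc (1.10) and Pls3 (0.34), and the other falls were Tmod4 (-0.33), Flna (-0.28) and Actn4 (-0.26). These 6 were named after their values were seen. Tmod4 is a tropomodulin of skeletal muscle and Pls3 a crosslinker of many non-muscle cells. From 50% to 48 h 5 rose and 5 fell, with Actn2 at 6.05, and with Actn1 at -1.38 and Flna, a crosslinker, at -1.28.

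Nucleation and elongation genes rose in 6 and fell in 9 of 24 to 24 h (median -0.04), and rose in 9 and fell in 10 to 48 h against 50% (median -0.10). Lmod3, the leiomodin that nucleates skeletal thin filaments, rose by 2.70 (SE 0.16, adjusted p = 2.24e-07) to 24 h and by 4.06 over the whole span. Cobll1 fell by 0.98 and 1.25 in the same comparisons, and Diaph3, a formin, fell by 1.57 over the whole span. Among 16 genes of monomer binding and filament turnover, 3 rose and 4 fell to 24 h (median -0.09). From 50% to 48 h 5 rose and 6 fell (median -0.12). Cfl2, the muscle cofilin, rose by 0.55 and 0.73, while Dstn, a cofilin relative, and Cap1, which recycles monomers, fell by 1.03 and 1.04 over the whole span. Tmsb10, a thymosin that holds monomers, rose by 1.24 over it.

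A list of SRF, proteins that act on it and the Vgll cofactors of TEAD rose in 4 and fell in 1 of 11 genes to 24 h (median 0.11). From 50% to 48 h 2 rose and 4 fell (median -0.05). The 4 rises to 24 h were Srf itself (0.95), Abra, Vgll2 (1.35) and Vgll3 (1.16), and the latter pair are TEAD cofactors rather than SRF coactivators. The fall was Mrtfb, an actin-sensing coactivator (-0.15). From 50% to 48 h Vgll2 rose by 1.48. Fhl2 had the largest fall of the list, at -1.38 (SE 0.04), and Srf changed by -0.58 (SE 0.08). Abra, a muscle activator of SRF also called STARS, had means of 6.54 and 6.48 in the myoblast stages, below the array median, and of 8.14 and 9.63 in the myotube stages. It too passed the filter only through the myotubes, and no test value is given for it, though it is among the rises counted. Vgll3 and Mrtfb were named because the count is small. Folding and modification genes rose in 2 and fell in 3 of 18 to 24 h (median -0.06). Over the whole span 6 rose and 8 fell (median -0.24), with Cct6a, a subunit of the chaperonin that folds actin, at -0.81 and Pfdn5, a prefoldin subunit, at 0.67. The oxidoreductases Mical1 and Mical2 went opposite ways, at 1.35 and -1.60.

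Smooth muscle partners rose in 6 and fell in 3 of 9 measured genes to 24 h (median 0.40), and rose in 4 and fell in 4 from 50% to 48 h (median 0.06). Tagln fell by 0.61 (SE 0.14) and by 1.91 (SE 0.14, adjusted p = 3.39e-07), and Cald1, caldesmon, by 0.72 and 1.21. Mylk, myosin light chain kinase, rose by 1.09 and 1.55, and Smtn by 1.25 over the whole span. Most genes named were the largest rises and falls of their list, so their sizes are not typical of it. Of the 90 listed genes measured, 3 (Tmod1, Abra and Synpo2) passed the filter only through myotube groups, and they are part of the counts. The filter favours a rise in such genes, so their calls do not support one.

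**Figure D5:**
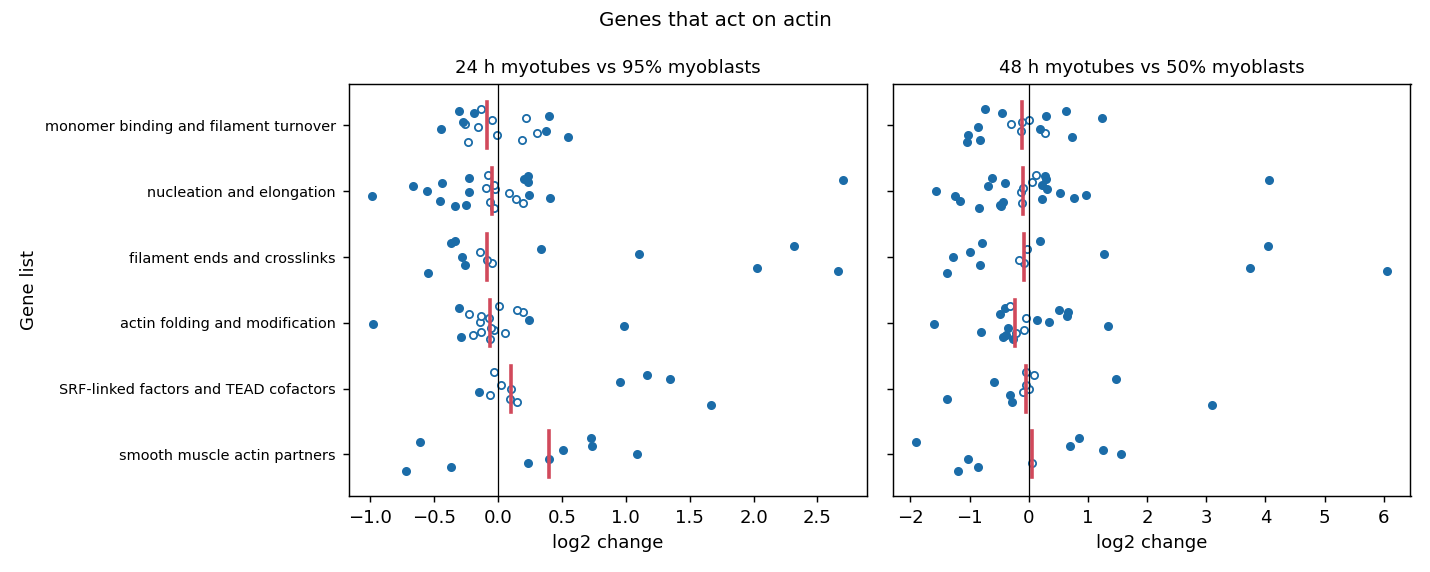
Log2 change of each measured gene in 6 lists of actin partners (rows), between 24 h myotubes and 95% myoblasts (left) and between 48 h myotubes and 50% myoblasts (right). Filled points passed an adjusted p of 0.05, open points did not, and red bars are list medians. Tmod1, Abra and Synpo2, which passed the filter only through myotubes, are drawn too, and their filled points do not support a rise. Most medians lie near 0, with Actn2 and Lmod3 far to the right at 6.05 and 4.06 in the right panel.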

How the data were processed

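The authors deposited a table of normalized log2 signal for 12 arrays. The tools RMA and lumi are listed, without roles or versions, per the submitters' processing notes, and the log base is inferred from the values. A variance-stabilized scale, which shrinks dim changes, cannot be told apart from a plain log2 scale. Background correction is not given in the sources used here. A second deposited table, not normalized, has 24 columns of per-sample values whose headings match no label, so it and its detection calls were not used here.

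Of 45281 probes 34885 had 1 gene, 18 several and 10378 none, and 34807 symbols were looked up by gene identifier. Probes were tested where some group had its 3 arrays each above their median (19403 probes, 11883 genes). Group means over all 12 arrays were fitted in R 4.3.3 by lmFit and eBayes of limma 3.58.1 (8 residual and 3.58 prior degrees of freedom), 2-sided, with Benjamini-Hochberg adjustment over all probes tested and a threshold of 0.05. Probes were kept apart, and 11423 within-array differences between probe pairs were fitted likewise. The fit was tested on simulated data. It takes 1 spread per probe for all stages, and the 95% arrays varied most. The number of arrays limits the precision. Members, lists and tests were chosen with earlier results of these data known. All 15 actin probes are named. For each list the rule allowed the 2 largest rises and falls in the 24 h against 95% and 48 h against 50% comparisons, and the text names some of these. Likeness was the 3 highest Pearson r per gene. Alternatives covered the filter, annotation, probe choice, variance model, array weights, samples fitted, scaling, a replicate block and leaving out each array.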

Additional observations from a re-analysis of the deposited data

How the results depend on the processing

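The log2 changes of actin probes did not turn direction with a call under any alternative run. With 1 array left out, called changes kept their call in 628 of 648 cases, and 20 no longer passed. Under the other alternatives 486 of 497 called changes kept theirs. These losses concerned Acta2 B and D, Actb A and Actb C. Uncalled changes passed in 15 cases, on Acta1, Acta2 B, C, D and E, Actg2 and Actb B, among them Acta2 D from 95% to 48 h without array 3 at 95% (-0.23, limma adjusted p = 0.00867). With 1 probe per gene, fewer probes were tested: 4423 passed for 24 h against 95%, 5328 for 48 h against 24 h, 4742 for 95% against 50%, 6710 for 48 h against 50%, 6622 for 48 h against 95%, 6621 for 24 h against 50%, and 8578 in the F-test. Of 5 actin genes, 2 rose and 1 fell for 24 h against 95%, 1 rose and 2 fell for 48 h against 24 h, and 4 fell for 95% against 50%. For 48 h against 50% 2 rose and 2 fell, and 4 passed the F-test. For 48 h against 95% 2 rose, while Actg2 and Actb A fell. For 24 h against 50% 2 fell, while Acta1 and Actc1 A rose. With only the 2 groups compared, 1 actin probe fell for 24 h against 95%. Of the 21 actin pairs of 1 gene, the 3 that changed unequally to 24 h were 7 without a filter and 1 with probes above the median on all 12 arrays, where 35 pairs of different genes passed in place of 53, with fewer pairs tested.

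Leaving out 1 array, these pairs numbered 2 to 6 for 24 h against 95%, with 6 without array 2 of the 95% group. They numbered 4 to 8 for 95% against 50%, with 4 without array 2 of the 50% group or array 1 of the 95% group, against 7 with all arrays.

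Replicate numbers were checked as pairs. The correlations of same-numbered arrays' deviations ran from -0.08 to 0.32, and 5 of 18 were over 0.1. With 3 numbers to match, 8 of 12 arrays correlated best with their own. Whether same-numbered arrays share an effect was not tested, and these values do not settle it. The labels do not say that the numbers belong together, so the main fit left them unpaired and a replicate block was run as an alternative. With a replicate block 6793 probes passed from 95% to 24 h in place of 6743, and 6 actin probes rose in place of 7 (Acta2 B, adjusted p = 0.0583). Bright probes near the ceiling and dim ones near the median limit what sizes of change can be seen.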
